A study of Homo sapiens with 4 samples.

Results

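The genes described here are the ligands and receptors of the tumour necrosis factor (TNF) superfamily. They were taken by gene name, as every gene named TNFSF or TNFRSF with a number, together with TNF, LTA, LTB, LTBR, CD40, CD40LG, CD27, CD70, FAS, FASLG and NGFR. This gave 43 of the 50868 genes in the count tables, made up of 17 ligands and 26 receptors. The cells were A549, a lung adenocarcinoma line, and their RNA was sequenced in 4 libraries. There were 2 libraries of control cells, described in the study as carrying the empty vector, and 2 libraries of cells overexpressing USP12, a deubiquitinating enzyme. The promoter that drives USP12 in these cells, and whether they were a clone or a pool, is not given in the sources used here. The labels do not say whether libraries came from separate cultures, so p-values measure only the spread between these libraries.

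Ligands of the superfamily are trimeric proteins, made at the cell surface and in many cases shed from it, that cluster their receptors. Many receptors with a death domain, though not all, recruit FADD or TRADD and can start caspase-8 driven apoptosis or NF-κB signalling. Receptors without a death domain bind TRAF proteins directly and mainly activate NF-κB and kinase cascades. Decoy receptors bind a ligand without passing on the death signal. In epithelial cancer cells the family is best known for TNF-driven inflammation and for killing by TRAIL.

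USP12 had 201 and 621 counts in the controls against 24235 and 32274 counts with USP12 overexpression (log2 fold change 6.32, SE 0.57, edgeR's quasi-likelihood test, adjusted p = 0.0975). Total counts lay between 14280081 and 16305356 per library, so that 3 counts, taken as the floor for counting error, equalled 0.166 to 0.227 CPM (counts relative to TMM-scaled library size). Control replicate 1 stood apart from control replicate 2 in the family and carries another date-like prefix in its column heading than the other 3 libraries, so values within 1 prefix are those without control replicate 1. All 6 epithelial markers (EPCAM, CDH1 and keratins 7, 8, 18 and 19) were present, with a summed level of 12896, 7475, 7316 and 6795 CPM in control replicates 1 and 2 and USP12 replicates 1 and 2. Of the leukocyte markers, CD3E, CD3D, CD2 and MS4A1 had no count and PTPRC had at most 1, and the list of 10 summed to 44.6, 9.59, 16 and 15.4 CPM, mostly CD14 and ITGAM. The 5 fibroblast markers summed to 16.1, 2.71, 20.1 and 15.8 CPM with DCN at 0, and the 4 endothelial markers to 15.5, 8.59, 0.504 and 1.32 CPM, nearly all of it CDH5 and PECAM1 with VWF and KDR at 3 counts or fewer. The part of these marker differences in the results below was not tested.

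Of the 43 genes, 25 passed the filter on low counts and were tested, which were 7 of 17 ligands, all 7 death domain receptors, 3 of 4 decoy receptors and 8 of 15 receptors without a death domain. Over all genes in the tables, 15222 of 50868 passed. The ligands TNFSF11 (RANKL), CD40LG, TNFSF8 and FASLG and the receptors TNFRSF13B, TNFRSF17 and TNFRSF18 had no count in any library. LTA, TNFRSF4 and CD27 reached 1 count at most, TNFSF18 reached 2, and TNFSF4 and TNFRSF8 reached 3. The highest count was 5 for TNFRSF14, 9 for TNFSF13B (BAFF) and for the decoy TNFRSF6B, 13 for TNFSF14 and 30 for TNF. Most of these are known as products of lymphocytes and myeloid cells. Of the tested genes, LTB, NGFR and TNFRSF1B passed the filter through the control libraries only and TNFRSF13C through the USP12 libraries only, so these 4 were tested only because 1 group was higher.

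Per kilobase of transcript, the abundant members were receptors. Averaged over the 4 libraries, TNFRSF1A, the main TNF receptor of epithelial cells, had 243 CPM per kb and LTBR, the lymphotoxin beta receptor, 179 CPM per kb. TNFRSF12A, the TWEAK receptor also called FN14, followed at 74.3 CPM per kb, then TNFRSF21 (DR6) at 43.1 and TNFRSF10B (TRAIL-R2) at 35.9 CPM per kb. Among the ligands, CD70 had the highest mean, 15.6 CPM per kb, but this came from control replicate 1. It had 42.8, 6.81, 7.35 and 5.55 CPM per kb in control replicates 1 and 2 and USP12 replicates 1 and 2, where TNFSF15 had 18.6, 6.68, 6.54 and 6.86 CPM per kb and TNFSF12 20.3, 6.56, 7.68 and 4.33 CPM per kb. Outside control replicate 1 these 3 ligands overlapped. TNFRSF1A had 325, 178, 237 and 230 CPM per kb in control replicates 1 and 2 and USP12 replicates 1 and 2, and LTBR had 246, 124, 186 and 159 CPM per kb. The ranges of these 2 overlapped between libraries, so the order of the first and second gene was set within a library, where TNFRSF1A was the higher in each.

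**Figure D1:**
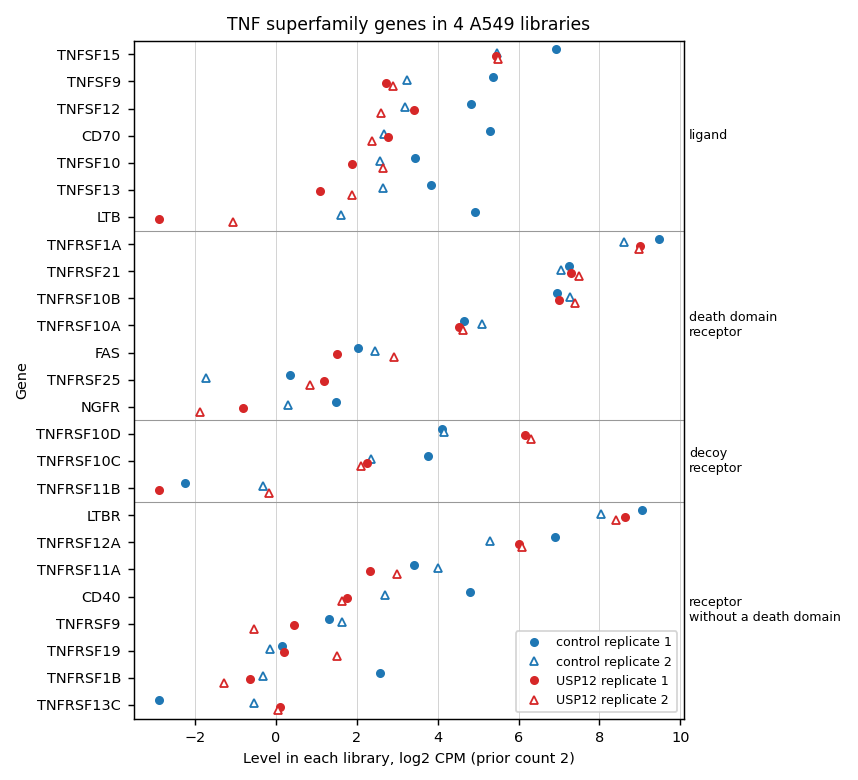
Level of the 25 tested ligands and receptors in each library, drawn as log2 CPM (prior count 2) with 1 row per gene, grouped by role, and 1 marker per library. LTB, CD40 and TNFSF13 lie lower in both USP12 libraries than in both controls, TNFRSF10D lies higher, and control replicate 1 is the highest library for the 7 ligands.

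No member passed the test at an adjusted p under 0.05, nor did any of the 15222 genes tested with edgeR's quasi-likelihood test (0.0%), while 7 members and 1155 genes had an unadjusted p under 0.05. At the same adjusted threshold, edgeR's exact test called TNFRSF10D and LTB among 429 genes, and DESeq2 called these and CD40 among 406 genes. The study's own criterion, an unadjusted p of at most 0.05 and a log2 fold change no higher than -1, was met by LTB, TNFSF9, TNFSF13, TNFRSF1B, CD40 and NGFR, 6 of 25 tested members, where 4.41% of all genes met it. Of these 6, LTB, NGFR and TNFRSF1B were tested only because the controls were higher and could hardly be called otherwise, so nothing is read from the count. With at least 10 counts in every sample, TNFSF13, TNFSF9 and CD40 met it among 18 members tested, where 3.91% of all genes did. Mirrored to higher values it was met by TNFRSF10D alone, 1 of 25 members, against 2.92% of all genes. Both USP12 libraries lay below both controls for 10 members, against 17.0% of all genes, and above both for 5 members, against 19.5% of all genes. LTB, NGFR and TNFRSF1B are among the 10. TNFRSF13C, tested only because the USP12 libraries were higher, is among the 5. Nothing is therefore read from these 2 counts either. The median log2 fold change of the 25 members was -0.78, and that of all genes tested was -0.06. Much of this came with control replicate 1, which was higher than control replicate 2 for 17 of 25 members by a median log2 difference of 1.00, against 7538 of 15222 genes and a median of -0.01. Without control replicate 1, the median of the members was -0.13 (all genes 0.02) and the criterion was met by 5 members in the lower direction, LTB, TNFSF13, CD40, TNFRSF11A and TNFRSF9, where 8.01% of all genes met it. In the higher direction TNFRSF10D and TNFRSF25 met it there, beside 7.94% of all genes. For a single gene, 2 libraries against 2 allow no two-sided p under 0.333 in an exact permutation test.

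**Figure D2:**
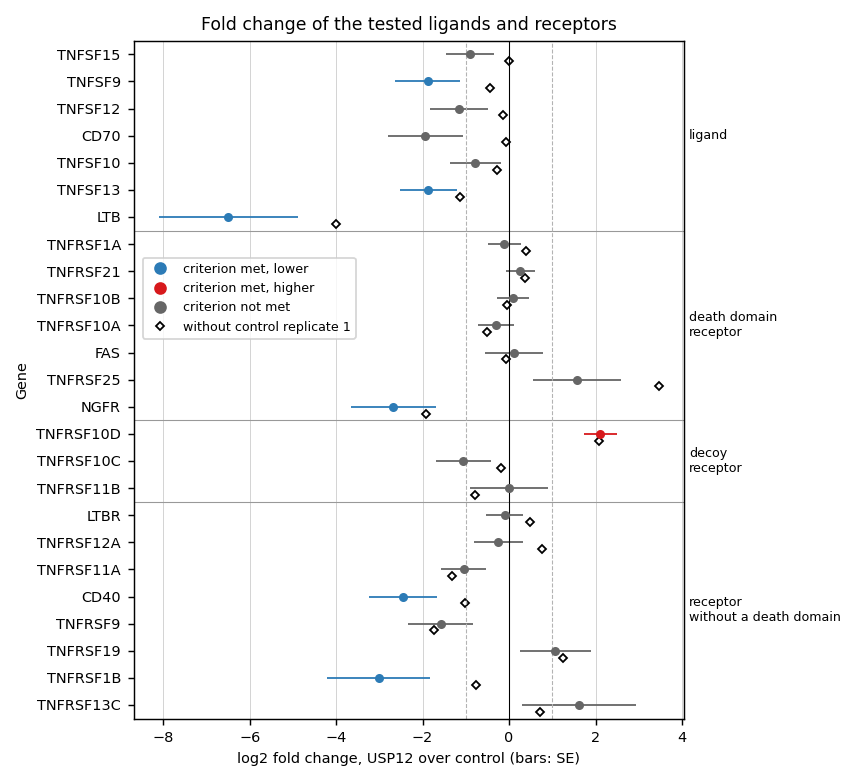
Log2 fold change of USP12 over control for the 25 tested members, grouped by role, with bars of 1 SE. Filled points are colored by the criterion (6 lower, 1 higher) and open diamonds give the value without control replicate 1, which is near 0 for 5 of the 7 ligands.

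All 7 tested ligands had a negative log2 fold change, with a median of -1.87. Of these, 3 met the criterion (LTB, TNFSF9 and TNFSF13), where 4.41% of all genes met it. As LTB was tested only because the controls were higher, nothing is read from this count. Control replicate 1 exceeded control replicate 2 for all 7, by a median log2 difference of 1.62. Leaving it out brought the median to -0.27 and left TNFSF9, CD70, TNFSF12, TNFSF15 and TNFSF10 within 0.5 of 0. Leaving out control replicate 2 brought it to -2.33. LTB and TNFSF13 were the 2 ligands that still met the criterion without control replicate 1.

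LTB, lymphotoxin beta, anchors secreted lymphotoxin alpha at the cell surface and engages LTBR. It had 401 and 53 counts in control replicates 1 and 2 (30.3 and 2.94 CPM), and 0 and 5 counts in USP12 replicates 1 and 2 (0 and 0.346 CPM). Both USP12 libraries lay far below both controls, which themselves differed 10.3-fold. The fitted log2 fold change was -6.50 (SE 1.61, edgeR's quasi-likelihood test, adjusted p = 0.319), a value that depends on how the library at 0 is treated. Without control replicate 1 the log2 fold change was -4.00, and without control replicate 2 it was -7.33. As LTB was tested only because the controls were higher, its p-values are not independent of that difference. Of the leukocyte markers, CD3E, CD3D, CD2 and MS4A1 were at 0 in the same libraries, whereas LYZ had 11, 27, 1 and 3 counts, ITGAM 143, 43, 23 and 31, and CD14 424, 85, 185 and 174. The summed level of that list, highest in control replicate 1, is given above, and its part in the LTB difference was not tested.

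LTB lies with LTA and TNF on chromosome 6, from 31572054 to 31582522 of GRCh38, a stretch of 10.5 kb. TNF, the family's founding inflammatory cytokine, did not pass the filter and is described after its values were seen. It had 30 and 7 counts in the controls (2.27 and 0.388 CPM) and no count in either USP12 library. Taking 3 counts per library as the floor, TNF was at least 6.27-fold lower in the USP12 libraries than in the mean of the controls. It was at least 10.7-fold lower against control replicate 1 and at least 1.83-fold lower against control replicate 2. LTA reached no more than 1 count. Of the flanking genes, NFKBIL1, before LTA, had 61.9, 25.3, 29.4 and 21.5 CPM with overlapping groups. LST1, beyond LTB, had at most 6 counts.

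The stretches before the starts of LTB and TNF are shown because these neighbours had their lowest counts in the same libraries. They differ in matches to a strict sequence pattern, a feature that the name rule did not use. Each is the 250 bases before the RefSeq start on the gene's own strand, from GRCh38.p14, read 5′ to 3′. Capitals mark a match on either strand to a strict form of the κB consensus, the motif of NF-κB dimers. This form is GGGRNWYYCC, with R for A or G, W for A or T, Y for C or T and N for any base. The LTB stretch is chr6:31582426-31582675 on the minus strand, with its match beginning at position -86 from the RefSeq start. The LTB gene of GENCODE begins inside this stretch, at 31582522, so by GENCODE the match lies within the gene and not before its start. The TNF stretch is chr6:31575315-31575564 on the plus strand and holds no match to this pattern. Sites that depart from the pattern are not marked, so a stretch without a match may still hold an NF-κB site.
LTB: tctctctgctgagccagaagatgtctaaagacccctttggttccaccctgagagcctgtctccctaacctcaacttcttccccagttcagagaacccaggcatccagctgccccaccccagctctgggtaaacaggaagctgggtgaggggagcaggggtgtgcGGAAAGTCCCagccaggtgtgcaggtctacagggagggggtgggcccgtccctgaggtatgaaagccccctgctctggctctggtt
TNF: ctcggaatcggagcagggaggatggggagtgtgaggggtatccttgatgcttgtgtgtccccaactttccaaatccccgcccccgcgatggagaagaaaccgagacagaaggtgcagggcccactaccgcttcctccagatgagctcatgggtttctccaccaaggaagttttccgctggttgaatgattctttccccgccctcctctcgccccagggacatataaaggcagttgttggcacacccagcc
Of the 43 members, 28 had a RefSeq stretch of this kind, and 7 of these (25.0%) held a κB match on either strand in at least 1 stretch, against 1715 of 27305 genes (6.28%). The 7 were FAS, LTA, LTB, TNFRSF14, TNFRSF9, with 2 overlapping matches, TNFSF13 and TNFSF14. Genes with several RefSeq starts have several stretches, and FAS held a match in 1 of 3, LTA in 1 of 2 and TNFSF13 in 1 of 2. LTB and TNFSF13 met the criterion, whereas FAS and TNFRSF9 did not and LTA, TNFRSF14 and TNFSF14 were not tested. TNFSF9 and TNFRSF1B, whose stretches held no match, also met the criterion. Whether a match goes with a lower level was not tested. CD40, CD70 and TNFRSF12A were among the members without a stretch.

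TNFSF13 (APRIL), a ligand that supports plasma cells, had 188 and 111 counts in the controls and 28 and 51 counts in the USP12 libraries (14.2, 6.15, 2.02 and 3.53 CPM). Both USP12 libraries were below both controls. The log2 fold change was -1.87 (SE 0.66, edgeR's quasi-likelihood test, adjusted p = 0.542), and -1.14 without control replicate 1. TNFSF12 (TWEAK), the ligand of TNFRSF12A, lies directly before it on chromosome 17 and had 370, 163, 147 and 86 counts (28.0, 9.03, 10.6 and 5.96 CPM). Its groups overlapped, with a log2 fold change of -1.16 (SE 0.68) that was -0.13 without control replicate 1.

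The annotation also holds TNFSF12-TNFSF13, a gene of readthrough transcripts joining both, from 7549099 to 7561601 on the plus strand of chromosome 17, which shares exonic sequence with each. Its symbol is outside the name rule. It had no count in either control and 32 and 25 counts in the USP12 libraries, or at least 10.3-fold more than the floor of 3 counts per control library (edgeR's quasi-likelihood test, adjusted p = 0.241). As this gene was tested only because the USP12 libraries were higher, its p-values are not independent of that difference. The 3 genes together had 558, 274, 207 and 162 counts in control replicates 1 and 2 and USP12 replicates 1 and 2, which is 42.2, 15.2, 14.9 and 11.2 CPM. On this sum, control replicate 2 and USP12 replicate 1 were nearly level. How the counting divided fragments between these overlapping genes is not given in the sources used here, so the values of TNFSF12 and TNFSF13 taken singly are uncertain. The stretch before the upstream one of the 2 RefSeq starts of TNFSF13, chr17:7558032-7558281 on the plus strand, lies within the readthrough gene and carries a κB match in capitals, beginning at position -141, while the stretch before the other start holds none.
TNFSF13: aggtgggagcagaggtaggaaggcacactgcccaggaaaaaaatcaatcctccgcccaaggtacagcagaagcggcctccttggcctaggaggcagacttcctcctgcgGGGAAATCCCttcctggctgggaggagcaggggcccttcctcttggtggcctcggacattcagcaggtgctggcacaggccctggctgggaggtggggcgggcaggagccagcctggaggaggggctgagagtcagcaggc

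**Figure D3:**
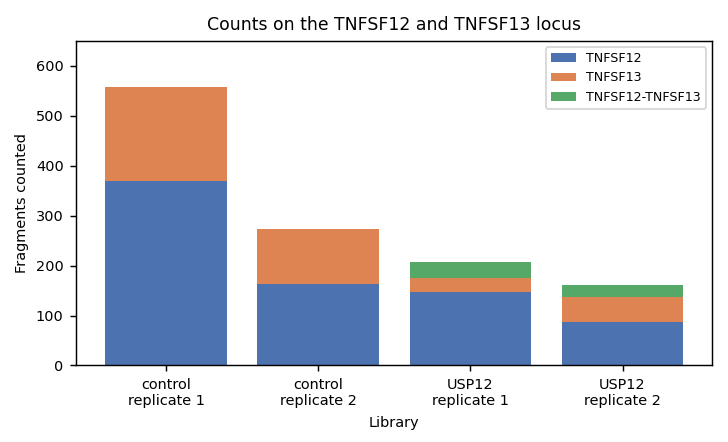
Fragments counted on TNFSF12, TNFSF13 and the readthrough gene TNFSF12-TNFSF13 in each library, as stacked bars from 0. The readthrough gene has counts in the USP12 libraries only, 32 and 25, and the sums are 558 and 274 in the controls and 207 and 162 with USP12.

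TNFSF9, CD70 and TNFSF14 lie within 139.6 kb on chromosome 19 and encode costimulatory ligands of T cells. TNFSF9 (4-1BB ligand) had 548 and 169 counts in the controls and 90 and 105 counts in the USP12 libraries (41.5, 9.36, 6.48 and 7.27 CPM). Both USP12 libraries were below both controls, though control replicate 2 was much nearer to them than to control replicate 1. Its log2 fold change was -1.88 (SE 0.75, edgeR's quasi-likelihood test, adjusted p = 0.638), and -0.44 without control replicate 1. CD70, the CD27 ligand, had 515, 112, 93 and 73 counts (39.0, 6.21, 6.69 and 5.06 CPM). Its groups overlapped, and the log2 fold change of -1.94 (SE 0.87) became -0.08 without control replicate 1. TNFSF14 (LIGHT) had 13, 4, 5 and 5 counts and was not tested. In this cluster, then, control replicate 1 was the high library for each gene.

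TNFSF15 (TL1A), the ligand of TNFRSF25, was the ligand with the highest CPM in every library. Its counts were 1614, 794, 598 and 652 (122, 44, 43.0 and 45.2 CPM), with overlapping groups. The log2 fold change of -0.91 (SE 0.55) was 0.00 without control replicate 1. TNFSF10 (TRAIL), which triggers apoptosis through TNFRSF10A and TNFRSF10B, had 142, 105, 49 and 88 counts (10.7, 5.82, 3.53 and 6.10 CPM). The groups overlapped here too, with a log2 fold change of -0.78 (SE 0.59).

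Of 18 receptors tested, 11 had a log2 fold change below 0 and 7 above, with a median of -0.10. This median was -0.07 without control replicate 1, beside -0.27 for the ligands, and the difference between ligands and receptors was not tested. The 7 death domain receptors had a median of 0.09, the 3 tested decoys 0.00 and the 8 others -0.65. These medians were -0.06, -0.19 and -0.14 without control replicate 1.

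TNFRSF10D is a TRAIL decoy (TRAIL-R4, DcR2) whose truncated death domain does not signal apoptosis. It had 224 and 318 counts in the controls (16.9 and 17.6 CPM) and 986 and 1136 counts in the USP12 libraries (71.0 and 78.7 CPM). The 2 values in each group were close and the groups were well apart. The mean level was 4.33-fold higher, a log2 fold change of 2.11 (SE 0.38, edgeR's quasi-likelihood test, adjusted p = 0.210). It ranged from 2.04 to 2.20 over 10 alternatives, with an adjusted p from 0.00107 to 1.00 and under 0.05 in 6 of them. Without control replicate 1 it was 2.09. GENCODE places no other gene over TNFRSF10D.

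The other TRAIL receptors, in the same 205.0 kb of chromosome 8, did not show the same difference. TNFRSF10A (TRAIL-R1) had 329, 614, 318 and 355 counts (24.9, 34.0, 22.9 and 24.6 CPM), just lower in both USP12 libraries, with a log2 fold change of -0.31 (SE 0.42). TNFRSF10B (TRAIL-R2) had 1636, 2794, 1790 and 2410 counts (124, 155, 129 and 167 CPM), with overlapping groups and a log2 fold change of 0.09 (SE 0.36). TNFRSF10C, a decoy held in the membrane by a lipid anchor, had 176, 90, 64 and 60 counts (13.3, 4.99, 4.61 and 4.16 CPM). It was lower in both USP12 libraries, with a log2 fold change of -1.06 (SE 0.63) that was -0.19 without control replicate 1. The 4 genes are paralogs, but no 50-base word of any of their canonical transcripts (1286 to 3949 words per gene) occurred in the other 3, so uniquely mapped fragments of that length can be assigned to 1 of them. In GENCODE, unnamed genes overlap TNFRSF10C on its own strand, and TNFRSF10A-AS1 and RHOBTB2 lie opposite to TNFRSF10A and TNFRSF10B, which leaves those 3 levels less certain.

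As a share of the TRAIL receptor transcripts per kb, TNFRSF10D made up 8.79% and 8.32% in the controls and 31.3% and 29.2% in the USP12 libraries. TNFRSF10B was the most abundant of the 4 in each library, with 56.8%, 64.6%, 50.3% and 54.8%. The receptors that signal, TNFRSF10A and TNFRSF10B together, had 40.2, 51.4, 40.7 and 50.9 CPM per kb, so their summed level overlapped between groups. The decoys TNFRSF10C and TNFRSF10D together had 14.3 and 8.56 CPM per kb in the controls and 23.4 and 25.2 CPM per kb in the USP12 libraries. Of these, TNFRSF10D was higher with USP12, as its own values above show. TNFRSF10C was lower, but its log2 fold change was only -0.19 without control replicate 1.

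**Figure D4:**
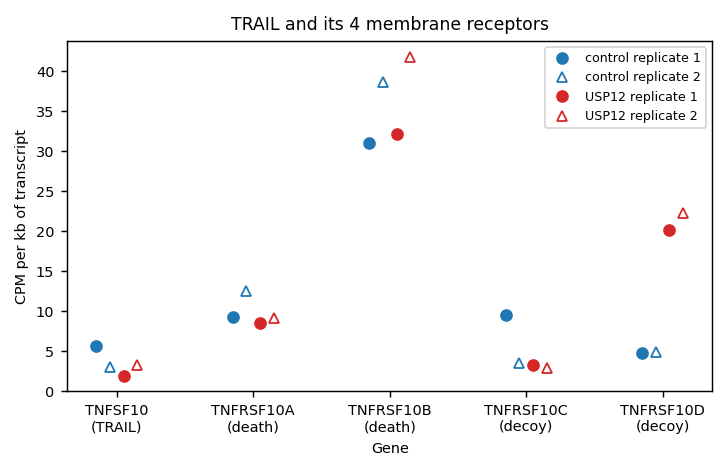
Levels of the ligand TNFSF10 (TRAIL) and of the 4 TRAIL receptors in each library, in CPM per kb of canonical transcript. TNFRSF10D is higher in both USP12 libraries, where it makes up 31.3% and 29.2% of the 4, against 8.79% and 8.32% in the controls.

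Of the remaining decoys, TNFRSF11B (osteoprotegerin), which captures RANKL and TRAIL, had 1, 12, 0 and 11 counts, and its log2 fold change was 0.00 (SE 0.91). TNFRSF6B was not tested.

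Among the other death domain receptors, only NGFR, the neurotrophin receptor p75, met the criterion. It had 35 and 20 counts in the controls against 6 and 2 with USP12, which puts USP12 replicate 2 under the floor. Its log2 fold change was -2.68 (SE 0.99, edgeR's quasi-likelihood test, adjusted p = 0.572), and -1.93 without control replicate 1, where the criterion was no longer met. NGFR was tested only because the controls were higher, so its p-value is not independent of that difference. NGFR-AS1 lies over NGFR on the opposite strand. TNFRSF1A had 9320, 6989, 7147 and 7219 counts (705, 387, 514 and 500 CPM), both USP12 values lying between the controls, and a log2 fold change of -0.11 (SE 0.39). TNFRSF21 had 1989, 2378, 2200 and 2589 counts (151, 132, 158 and 179 CPM), slightly higher in both USP12 libraries, with a log2 fold change of 0.26 (SE 0.34). FAS, the receptor of FAS ligand, had 52, 97, 38 and 107 counts (3.93, 5.38, 2.74 and 7.41 CPM) and overlapping groups, with a log2 fold change of 0.12 (SE 0.67). It overlaps STAMBPL1 on its strand and ACTA2 on the other. TNFRSF25 (DR3), the TL1A receptor, had 15 and 3 counts in the controls and 30 and 24 with USP12. Its log2 fold change of 1.58 (SE 1.02) did not meet the criterion but did so without control replicate 1, at 3.46, where it rests on 3 control counts. ESPN lies opposite to TNFRSF25.

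CD40, a receptor of antigen-presenting cells that many carcinomas also express, met the criterion. It had 367 and 114 counts in the controls and 45 and 43 counts in the USP12 libraries (27.8, 6.32, 3.24 and 2.98 CPM). The USP12 values were close to each other and below both controls, which differed from each other more than control replicate 2 did from the USP12 libraries. The mean was 5.48-fold lower, a log2 fold change of -2.45 (SE 0.79, edgeR's quasi-likelihood test, adjusted p = 0.470, and 0.00236 to 1.00 over 10 alternatives). Without control replicate 1 it was -1.02, still past the criterion.

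TNFRSF1B, the TNF receptor of lymphoid and myeloid cells, met the criterion on low counts. It had 77 and 12 counts in the controls and 7 and 4 counts with USP12. Only control replicate 1 stood clearly above the rest. TNFRSF1B was tested only because the controls were higher, so its p-value is not independent of that difference. Its log2 fold change of -3.02 (SE 1.20, edgeR's quasi-likelihood test, adjusted p = 0.630) was -0.76 without control replicate 1. Both TNF receptors thus gave values that depended on that library, with TNFRSF1A turning from -0.11 to 0.39 without it.

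TNFRSF9 and TNFRSF11A did not meet the criterion with all 4 libraries but met it without control replicate 1. TNFRSF9 (4-1BB), the TNFSF9 receptor, had 31 and 54 counts in the controls and 17 and 8 in the USP12 libraries, with a log2 fold change of -1.58 (SE 0.75) and of -1.74 without that library. TNFRSF11A (RANK), the receptor of RANKL, had 140 and 287 counts in the controls and 68 and 114 in the USP12 libraries (10.6, 15.9, 4.89 and 7.90 CPM). Its log2 fold change was -1.05 (SE 0.52), and -1.31 without that library. Both genes had their higher control value in control replicate 2.

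LTBR, which lies with TNFRSF1A on chromosome 12, had 6951, 4758, 5506 and 4909 counts (526, 264, 396 and 340 CPM). Its groups overlapped with a log2 fold change of -0.10 (SE 0.43). SCNN1A lies over LTBR on the opposite strand. TNFRSF12A had 1571, 704, 899 and 979 counts (119, 39.0, 64.7 and 67.8 CPM), with both USP12 values between the controls and a log2 fold change of -0.25 (SE 0.57) that was 0.77 without control replicate 1. CLDN6 lies opposite to it. TNFRSF19 (TROY), an orphan receptor, had 13, 14, 14 and 39 counts and a log2 fold change of 1.07 (SE 0.82), with USP12 replicate 2 the high library. TNFRSF13C, the BAFF receptor of B cells, had 0, 10, 13 and 13 counts and a log2 fold change of 1.62 (SE 1.32), with control replicate 1 the low library.

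Read as ligand and receptor pairs, a pattern shared by both partners was seen for few. LTB was lower while LTBR lay between -0.49 and 0.48 with each library left out. TNFSF9 and TNFRSF9 were both lower in both USP12 libraries, although at 17 and 8 counts the receptor was scarce there. For a single gene, 17.0% of all genes tested lay so. Without control replicate 1 the log2 fold change was -0.44 for TNFSF9 and -1.74 for TNFRSF9. TNF and TNFRSF1B were also both lower in both USP12 libraries, on low counts, while TNFRSF1A overlapped. TNFSF15 overlapped between groups, whereas its receptor TNFRSF25 was higher with USP12, on low counts. TNFSF12 and TNFRSF12A, and TNFSF10 with its signalling receptors, had overlapping or nearly overlapping groups. CD40 was present without its ligand CD40LG, TNFRSF11A without TNFSF11, and CD70 with at most 1 count of its receptor CD27.

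Beneath the receptors, 38 of 39 genes on a list of adaptors, ubiquitin enzymes, kinases and caspases were tested, RIPK3 having no count. The criterion was met in the lower direction by 5 (BIRC3, MAP3K5, TRAF4, NFKB2 and TNIP1) and in the higher direction by 0, where 4.41% and 2.92% of all genes met it. The log2 fold change was below 0 for 25 and above 0 for 13. The list's median log2 fold change was -0.25, and -0.24 without control replicate 1. Both USP12 libraries lay below both controls for 13 genes and above for 3, beside 17.0% and 19.5% of all genes. Without control replicate 1, the log2 fold changes of TRAF4, NFKB2 and TNIP1 lay above -1, while those of BIRC3 and MAP3K5 stayed below it. CASP10 (-1.16), RBCK1 (-1.12), CYLD (-1.10) and MLKL (-1.09) also lay below -1 there. Without control replicate 2, CASP10 was at -0.95, RBCK1 at -0.55, CYLD at 0.26 and MLKL at 0.22. The groups of CYLD and MLKL overlapped.

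BIRC3 (cIAP2), a ubiquitin ligase held at TNF receptor complexes by TRAF2 and itself a known NF-κB target, had 667 and 676 counts in the controls and 139 and 160 counts in the USP12 libraries (50.5, 37.5, 10 and 11.1 CPM). Here the controls were close and the groups well apart. The log2 fold change was -2.06 (SE 0.44, edgeR's quasi-likelihood test, adjusted p = 0.274, and 0.00316 to 1.00 over 10 alternatives), and -1.83 without control replicate 1. MAP3K5 (ASK1), a stress kinase, had 69, 106, 17 and 28 counts and a log2 fold change of -1.80 (SE 0.61), or -1.88 without that library. TRAF4 had 955, 527, 236 and 260 counts and a log2 fold change of -1.53 (SE 0.55). NFKB2, the precursor of p52 in the non-canonical pathway used by LTBR and CD40, had 2559, 1450, 775 and 713 counts and a log2 fold change of -1.38 (SE 0.50). TNIP1, a partner of the NF-κB inhibitor A20, had 9130, 4295, 2454 and 2786 counts and a log2 fold change of -1.33 (SE 0.54). Without control replicate 1 these 3 were at -0.74, -0.61 and -0.36.

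RELB, the partner of p52, had 781, 557, 243 and 345 counts and a log2 fold change of -1.12 (SE 0.49), which missed the criterion and was -0.57 without control replicate 1. MAP3K14 (NIK), the kinase that starts the non-canonical pathway, had 1449, 635, 1046 and 1313 counts, with a log2 fold change of 0.20 (SE 0.58) and of 1.24 without control replicate 1. TNFAIP3 (A20) had 184, 223, 130 and 112 counts, lower in both USP12 libraries, with a log2 fold change of -0.62 (SE 0.45). The adaptors TRAF1 (-0.30), TRAF2 (-0.46) and FADD (-0.19) had overlapping groups, and their values were 0.56, 0.60 and 0.32 without control replicate 1. Of the death pathway genes, CASP8 was at -0.09, its inhibitor CFLAR at -0.55 and RIPK1, the kinase shared by both arms, at 0.56, or 0.11 without that library. ADAM17, the sheddase of TNF, was at 0.00 (SE 0.42).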

How the data were processed

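RNA-seq of 4 A549 libraries (2 control, 2 USP12, grouped by the labels) was used. The authors deposited raw counts of uniquely mapped fragments per gene, after adaptor trimming and rRNA filtering with Seqtk, mapping to GRCh38 with HISAT2 (version 2.0.4) and counting with StringTie (version 1.3.0). The kit was stranded. Which annotation release was used, and whether counting used strand, is not given in the sources used here, so overlapping genes are uncertain. Counts per library and the floor cover counting error only.

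Genes were tested in R 4.3.3 with edgeR 4.0.16 (TMM, filterByExpr, quasi-likelihood test, Benjamini-Hochberg adjustment over 15222 genes). SE is the log2 fold change divided by the root of F and is approximate. Transcript length, positions and overlaps came from GENCODE release 44, in which 15094 tested genes and all 43 members matched, and upstream sequences from RefSeq (GRCh38.p14). The scripts were tested on simulated data. Alternatives were DESeq2 size factors, no filter, a minimum of 10 counts in each sample, Wald tests in DESeq2 1.42.0, edgeR's exact test, a replicate block and leaving out each library.

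The value of 1 marker gene is not reported here. Members and lists were chosen with earlier results of these data known. Every member was to be named, tested members with all counts, with signalling genes past the criterion plus TRAF1, TRAF2, BIRC3, TNFAIP3, FADD, CASP8, RIPK1, CFLAR, NFKB2, RELB, MAP3K14 and ADAM17.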

Additional observations from a re-analysis of the deposited data

How the results depend on the processing

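Under the 10 alternatives, 18 of the 25 tested members had no change of sign wherever they could be fitted, and the medians of the tested members, ligands and receptors were negative under each. Counts of calls moved more. Members that met the criterion lower numbered 3 with at least 10 counts in every sample, which leaves 18 members tested, and 2 to 12 with 1 library left out (1.86% to 13.3% of all genes), and those higher 1 to 2 (0.985% to 15.6%). Members with an adjusted p under 0.05 numbered 4 without a filter (528 of all 24800 genes), 3 with the DESeq2 Wald test (406 of 15222), 2 with the edgeR exact test (429 of 15222) and 0 to 13 with 1 library left out, the 13 without control replicate 2, where 5162 of 16008 genes passed. In the signalling list 0 to 9 genes were lower and 0 to 6 higher with 1 library left out. The highest counts of this list in both directions came without control replicate 2, as did the highest shares of all genes given above. Nothing is therefore read from the counts of this list. The ligand median ranged from -2.33 without control replicate 2 to -0.27 without control replicate 1. Leaving out 1 library also spanned 0 for FAS (-0.77 to 0.68), TNFRSF10B (-0.12 to 0.28), TNFRSF1A (-0.45 to 0.39), TNFRSF11B (-0.78 to 1.00), LTBR (-0.49 to 0.48) and TNFRSF12A (-0.81 to 0.77), and took TNFSF15 from -1.44 to 0.00. TNFRSF11B was 0.02 without a filter and with the exact test and 0.01 with DESeq2. The cause was not tested.

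With the replicate block, 2 members (TNFRSF10D and LTB) had an adjusted p under 0.05, as did 404 of 15222 genes, 1 signalling gene met the higher criterion, as did 3.78% of all genes, and FAS was at -0.02. Libraries with the same number deviated together only weakly (correlation across genes 0.152), and nothing in the labels pairs them. The prior degrees of freedom were infinite in that fit, without a filter and without either USP12 library, so those calls use no spread of the single gene. A left-out library leaves 1 sample in its group, assumed to vary like the others. Counts of 0 in both USP12 libraries limit TNF to a bound.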

Other observations

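Genes of the superfamily have symbols that the name rule does not take. EDA2R (XEDAR), a receptor for ectodysplasin, had 223 and 242 counts in the controls and 499 and 532 counts in the USP12 libraries, or 16.9, 13.4, 35.9 and 36.8 CPM. The controls were close to each other and the groups did not overlap. Its log2 fold change was 1.26 (SE 0.42, edgeR's quasi-likelihood test, adjusted p = 0.497), which met the mirrored criterion, and it was 1.44 without control replicate 1. RELT, an orphan receptor, had 287, 121, 88 and 79 counts and a log2 fold change of -1.26 (SE 0.67), which was -0.18 without control replicate 1. EDAR, the other ectodysplasin receptor, had 4, 68, 4 and 5 counts and was not tested, control replicate 2 being the high library. EDA, the ligand, had 15, 11, 10 and 13 counts and a log2 fold change of -0.09 (SE 0.83).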
